A study of Homo sapiens with 12 samples.

Results

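The transcriptome of untreated hCMEC/D3 cells was described from the 4 control libraries of a series of 12. hCMEC/D3 is an established human brain microvascular endothelial line, made from cerebral microvessel cells that were immortalised with introduced hTERT and SV40 large T antigen, and it serves in culture as a stand-in for the blood-brain barrier. The libraries were chosen by their label alone: endothelial cells grown adherent in endothelial medium, without particles. The other 8 libraries came from cells given SiNPs of 35 nm or 58 nm at 100 µg/mL for 24 h and were not used. The line is 1 clone, and the labels do not say whether the 4 libraries came from separate cultures, so the spread between them may be technical. They give no vehicle for the controls. No comparison between groups was made, and each result is a level, a rank or a spread.

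Endothelial cells of brain capillaries are joined by continuous tight junctions built from claudins, occludin and their cytoplasmic partners, and adherens junctions of VE-cadherin hold neighbouring cells together. They carry few caveolae, pump lipophilic compounds back to the blood through ATP-binding cassette transporters, and import glucose, amino acids and monocarboxylates through solute carriers. Wnt and beta-catenin signalling from neural cells maintains this state in vivo, and cultured brain endothelium is known to lose part of it.

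Levels are given in FPKM, fragments per kilobase of exon scaled to the size of the library, so genes of different length can be set side by side. Values after ± are SDs of the 4 libraries, ranks run from 1 for the highest mean among 58735 genes, and a gene with a mean of at least 1 FPKM is called detected. The 4 libraries held 10208717, 10678269, 10633038 and 10039422 reads in genes, and at a length of 1 kb 3 reads amounted to between 0.274 and 0.293 FPKM. Of all genes, 12325 were detected (21%), 4956 reached 10 FPKM (8.44%), 258 reached 100 FPKM (0.439%) and 32874 were at 0 in all 4 libraries (56%). Of 19951 protein-coding genes, 10555 were detected (52.9%), 4800 reached 10 FPKM (24.1%), 240 reached 100 FPKM (1.2%) and 4621 were at 0 (23.2%). These shares are the background for the 37 gene lists below, of which 623 of 833 different genes were detected (74.8%). A high share in a list describes the genes chosen and was not tested.

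Expression was concentrated in few genes. The 10 highest genes held 11.8 ± 0.187% of the summed FPKM, the 100 highest 26.3 ± 0.103% and the 1000 highest 53.7 ± 0.0578%. Genes of the mitochondrial genome took the first ranks, led by cytochrome oxidase subunit MT-CO1, which was listed at 6834, 6925, 6808 and 6676 FPKM in libraries 1 to 4. The mitochondrial genome gave 3.12 ± 0.0558% of gene reads but 13.2 ± 0.228% of summed FPKM. Among nuclear genes, the actin-binding peptide gene TMSB10 (1314 ± 152 FPKM, rank 9), ACTB (1208 ± 56.3, rank 10), the elongation factor EEF1A1 (1122 ± 24.5, rank 12) and the ferritin light chain FTL (1009 ± 22.2, rank 13) led. Behind them stood EEF2, the interferon-stimulated genes ISG15 and IFI6, and the galectin LGALS1, at 743, 739, 692 and 673 FPKM. RPS28P7, a processed pseudogene, held rank 11, and reads that it may share with its parent gene make that level uncertain.

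**Figure D1:**
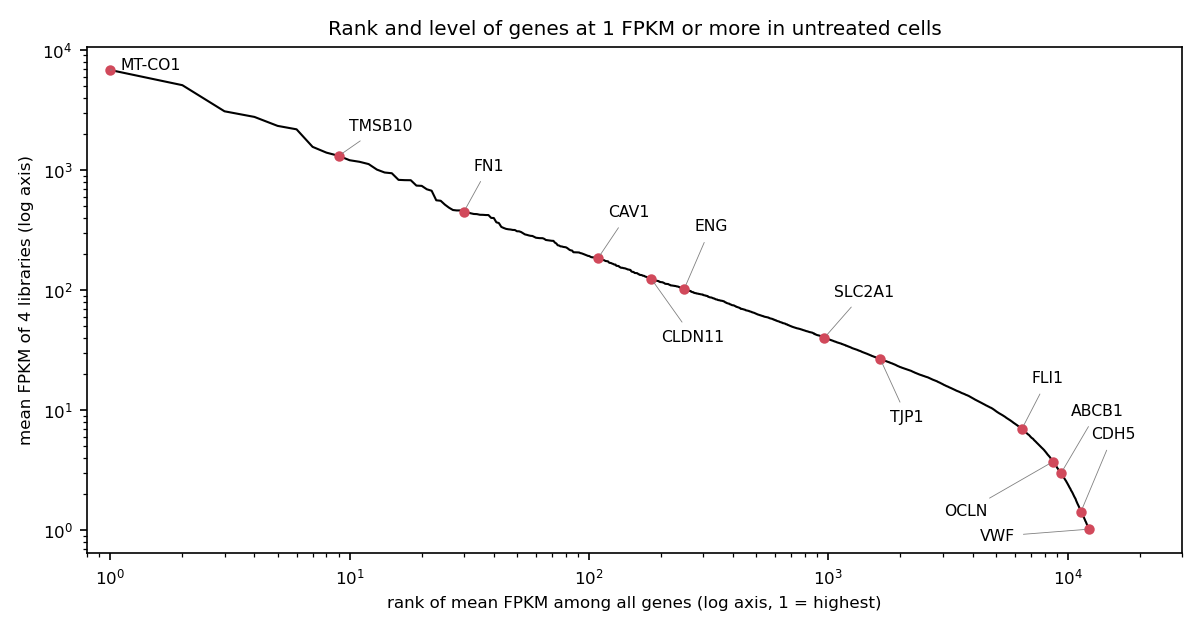
Mean FPKM of 4 untreated libraries (vertical log axis) against rank among all genes (horizontal log axis), as a line for the 12325 genes at 1 FPKM or more, with 13 genes marked as points. FN1, CAV1, CLDN11 and ENG lie between rank 30 and rank 250, whereas ABCB1, CDH5 and VWF lie from rank 9376 on, near the end of the line.

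Endothelial identity genes spanned the whole range of levels, from rank 250 to no read at all. Of 30 endothelial markers, 16 were detected, 12 lay below 1 FPKM and 2 were at 0, with a median of 1.09 FPKM, and the detected share of 53.3% is close to that of all protein-coding genes. Endoglin, a TGF-beta co-receptor of endothelium that other stromal cells also carry (ENG, chr9:127815012-127854756, GRCh38), was the highest, at 106, 103, 97.2 and 104 FPKM in libraries 1 to 4. The C-type lectin CLEC14A followed at 38.7, 36.7, 38.8 and 41.8 FPKM, and the adhesion GPCR ADGRL4 at 13.2 ± 0.436 FPKM. Library 4 was the highest for CLEC14A and library 3 the lowest for ENG, and the order of the 3 genes was the same in all 4 libraries.

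The junctional and haemostatic markers by which endothelium is usually recognised were detected at 1 to 2 FPKM. VE-cadherin, the adherens junction cadherin of endothelium (CDH5, chr16:66366622-66404786), was listed at 1.65, 1.4, 1.4 and 1.3 FPKM, which is 371 reads over the 4 libraries and rank 11358. The adhesion molecule PECAM1 (chr17:64319415-64413776) stood at 1.34, 1.67, 1.31 and 1.33 FPKM, with library 2 above the other 3. VWF, the clotting protein stored in endothelial granules, had 0.853, 1.16, 0.963 and 1.12 FPKM, on both sides of the detection level, and CD34 had 1.15 ± 0.185 FPKM. In bulk RNA, fewer cells that express a gene and less of its RNA in each cell cannot be told apart. The receptor tyrosine kinase TIE1 was higher, at 5.26 ± 0.476 FPKM, but its relative TEK, the angiopoietin receptor, was below detection at 0.176 ± 0.0504 FPKM.

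Several defining genes were nearly or fully without reads. KDR, the main VEGF receptor of endothelium (chr4:55078259-55125595), and NOS3, the endothelial nitric oxide synthase (chr7:150990995-151014588), had no read in any of the 4 libraries. A count of 0 allows up to 0.0108 FPKM for KDR and 0.0119 FPKM for NOS3, taking 3 reads over the 4 libraries together as the limit, which covers counting error only. FLT1, the other VEGF receptor of the list, had 6 reads in all and 0.011 ± 0.0126 FPKM. PLVAP, the diaphragm protein of leaky capillaries that barrier endothelium lacks, had 7 reads and 0.0714 ± 0.0708 FPKM. Set against the label of endothelial cell, the defining markers ENG, TIE1 and FLI1 were thus well above 1 FPKM. CDH5, PECAM1, VWF, ICAM2 and CD34 lay between 1.02 and 1.49 FPKM, while KDR, NOS3, FLT1, TEK, ERG, CLDN5 and PLVAP were below 1 FPKM.

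**Figure D2:**
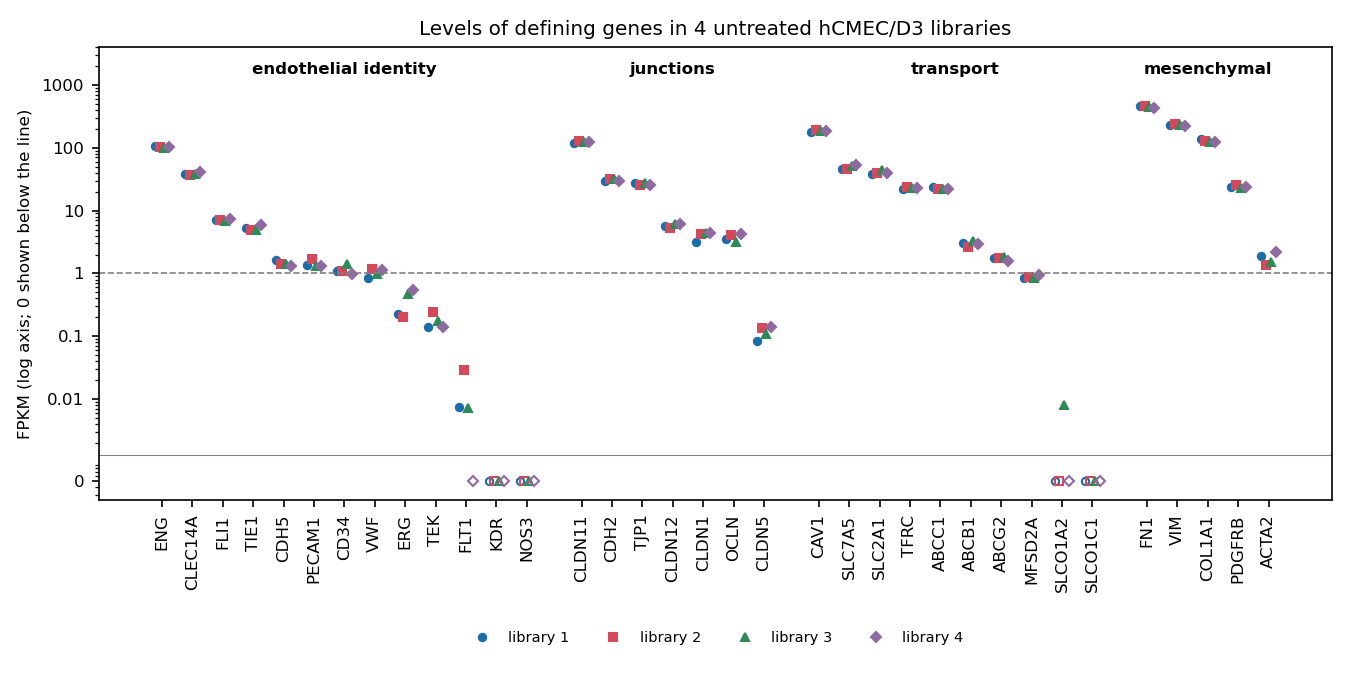
FPKM on a log axis, with 1 point for each of 4 untreated libraries, for defining genes of endothelial identity, junctions, transport and mesenchymal cells, and for CLEC14A, which was not marked as defining. Open symbols below the solid line are values of 0 and the dashed line marks 1 FPKM. ENG, CLDN11, CAV1 and the mesenchymal genes FN1 and VIM lie near or above 100 FPKM in all 4 libraries, CDH5, PECAM1 and VWF lie near 1 FPKM, and KDR, NOS3 and SLCO1C1 are at 0.

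Endothelial transcription factors also ranged from high levels to 0. Of 27, 15 were detected (55.6%, close to the 52.9% of all protein-coding genes) and 9 reached 10 FPKM. The hypoxia-inducible factor EPAS1 led at 74.9 ± 1.66 FPKM, followed by NR2F2, which directs venous identity, at 47.1 ± 1.27 FPKM and the ETS factor ELK3 at 37.4 ± 0.228 FPKM. KLF2, which is induced by flow in vivo, stood at 38.1, 28.2, 30.4 and 31.9 FPKM in libraries 1 to 4, with library 1 the highest. Of the ETS factors that maintain endothelial fate, ETS1 was at 21.8 ± 1.51 FPKM and FLI1 at 7.01 ± 0.162 FPKM, whereas ERG was below detection. ERG was listed at 0.226, 0.205, 0.476 and 0.54 FPKM, so libraries 3 and 4 were above libraries 1 and 2, and its 4 values differed beyond counting error (chi-square test of equal rates, Benjamini-Hochberg adjusted p = 0.00355, 4 libraries). SOX17 had 1 read in all, and SOX18 was at 0, which allows up to 0.0379 FPKM.

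Among arterial markers, 5 of 12 were detected: the chemokine CXCL12 (26.1 ± 1.08 FPKM), the Notch ligand JAG1 (17.5 ± 0.567 FPKM), NOTCH1 (5.85 ± 0.624 FPKM), UNC5B and EFNB2. The arterial connexins GJA4 and GJA5 were at 0. Of 10 venous and lymphatic markers, NR2F2 and EPHB4 (15.4 ± 0.514 FPKM) were detected, and SELP, the leukocyte-capturing P-selectin, was at 0. Vasoactive and coagulation genes were detected more fully, in 17 of 22, with 3 above 100 FPKM. Among these were the urokinase gene PLAU at 184 ± 11.6 FPKM and the plasminogen co-receptor ANXA2 at 120.3 ± 3.75 FPKM. Tissue plasminogen activator, PLAT, was at 18.7 ± 0.737 FPKM, so PLAU was 9.89 ± 0.730 times as high. PLAU shares 31.1% of its exon bases with a gene on the other strand that was itself at 0.768 FPKM. The vasoconstrictor precursor EDN1 was low, at 1.62 ± 0.373 FPKM, and so was the anticoagulant receptor THBD, at 1.26 ± 0.103 FPKM.

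Most junction genes were detected, but the claudin that dominates brain endothelium was not. Of 40 tight and adherens junction genes, 25 were detected and 1 reached 100 FPKM. Claudin-5, the main claudin of brain capillaries (CLDN5, chr22:19523024-19527545), had 17 reads over 4 libraries, at 0.0834, 0.133, 0.108 and 0.142 FPKM and rank 19285. Claudin-11, best known from myelin and the testis and also found in brain endothelium (CLDN11, chr3:170418865-170454733), was listed at 119, 129, 124 and 125 FPKM and rank 182. All 4 libraries thus had CLDN11 far above CLDN5, by 1104 ± 242 times, a ratio that rests on the few reads of CLDN5. The other claudins that were detected were CLDN12 (5.8 ± 0.469 FPKM), CLDN1 (4.07 ± 0.584 FPKM), CLDN15, CLDN7 and CLDN23. Library 1 was the lowest for CLDN1, at 3.20 FPKM against 4.29 to 4.43 in the other 3.

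Occludin, a tight junction membrane protein (OCLN), was at 3.47, 4.07, 3.11 and 4.3 FPKM, with libraries 2 and 4 above 1 and 3, and its adaptor TJP1 (ZO-1) was at 27.5, 25.7, 27.3 and 25.9 FPKM. TJP1 varied little around its mean. Junctional adhesion molecules were low: JAM2 was at 3.68 ± 0.371 FPKM, F11R at 3.09 ± 0.639 FPKM and JAM3 at 1.48 ± 0.169 FPKM. F11R shares 36.6% of its exon bases with another gene on the same strand.

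Of the adherens junction genes, the cadherin CDH2 and the catenins were well above CDH5. N-cadherin, the cadherin of mesenchymal and neural cells that endothelium carries outside its junctions (CDH2), stood at 29.8, 31.5, 32.1 and 29.96 FPKM, and was 21.6 ± 2.36 times CDH5. The catenins that link cadherins to actin were all detected: plakoglobin, JUP, at 61.2 ± 1.53 FPKM, CTNNB1 at 24.6 ± 0.333 FPKM, with CTNNA1 and CTNND1 at 47.5 and 39.2 FPKM. The gap junction gene GJA1, connexin 43, was at 66.7 ± 5.49 FPKM.

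Efflux pumps were detected in 9 of 15 genes, with a median of 3 FPKM. The multidrug resistance protein ABCC1 was the highest at 23.5, 22.4, 22.1 and 22.3 FPKM, and ABCC4 was at 8.57 ± 0.566 FPKM. P-glycoprotein, the pump most used to define the barrier (ABCB1, chr7:87503633-87713323), was at 3.07, 2.68, 3.26 and 2.99 FPKM and rank 9376, so ABCC1 was 7.56 ± 0.646 times as high. Breast cancer resistance protein (ABCG2, chr4:88090264-88231322) was at 1.76, 1.76, 1.82 and 1.59 FPKM. Neither ABCB1 nor ABCG2 passed the test of spread beyond counting error, and all 4 libraries had ABCB1 above ABCG2.

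Solute carriers of the barrier were detected in 29 of 44 genes, and 17 of these reached 10 FPKM. The highest were amino acid transporters: SLC38A2 at 135 ± 7.17 FPKM, SLC7A5 (the LAT1 light chain) at 49 ± 3.33 FPKM and the cationic amino acid carrier SLC7A1 at 45 ± 0.875 FPKM. SLC3A2, the heavy chain that partners SLC7A5, was at 35.4 ± 1.8 FPKM. The glucose transporter of the barrier, SLC2A1, was listed at 37.8, 39.4, 43.4 and 39.6 FPKM, with library 3 the highest, and was 7.33 ± 1.02 times SLC2A3. The lactate carrier SLC16A1 was at 23.6 ± 0.181 FPKM and the glutamine carrier SLC38A5 at 18 ± 0.788 FPKM.

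Another 5 carriers that mark brain endothelium in vivo were below detection. MFSD2A, which carries docosahexaenoic acid and restrains transcytosis, was just below detection at 0.833, 0.89, 0.832 and 0.95 FPKM. SLCO1C1, the thyroxine carrier, and SLC22A8, an organic anion carrier, had no read, which allows up to 0.0145 and 0.00828 FPKM. SLCO1A2 and SLCO2B1, organic anion carriers, had 1 and 2 reads, all in library 3.

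Caveolar and receptor-mediated transport genes were high, with 23 of 27 detected, 4 of them at 100 FPKM or more and a median of 22.9 FPKM. Caveolin-1, the coat protein of caveolae (CAV1, chr7:116524785-116561184), was listed at 179.8, 192, 185 and 181 FPKM and rank 109, and its coat partner CAVIN1 at 154 ± 6.96 FPKM. CAV1 was 12.9 ± 0.381 times CAV2. Basigin, BSG, a chaperone of monocarboxylate carriers that is abundant at the barrier, was the highest at 196 ± 3.81 FPKM. Among receptors that carry cargo across the barrier, LRP1 was at 41.8 ± 0.948 FPKM, the transferrin receptor TFRC at 22.9 ± 0.473 FPKM, LRP8 at 6.67 ± 0.292 FPKM, INSR at 3.22 ± 0.318 FPKM and AGER at 2.78 ± 0.506 FPKM.

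Wnt receptors and co-receptors were among the detected genes of their list. Of 24 Wnt genes, 16 were detected. FZD6 was the highest receptor at 53.2 ± 1.28 FPKM, the co-receptor LRP5 was at 26.3 ± 0.745 FPKM, and FZD4, the Norrin receptor of retinal and brain vessels, was at 7.67 ± 0.472 FPKM. RECK and ADGRA2, which together confer the response to Wnt7 ligands, were at 4.62 ± 0.538 and 2.85 ± 0.552 FPKM. No list of target genes was tallied. AXIN2, a direct target of beta-catenin, was at 0.158 ± 0.0116 FPKM, and the nuclear effector LEF1 and the target APCDD1 were at 0, which allows up to 0.0132 FPKM for LEF1.

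Barrier enzymes were detected in 12 of 22 genes (54.5%), close to the 52.9% of all protein-coding genes. Aminopeptidase N (ANPEP) led at 116 ± 2.97 FPKM, with the detoxifying enzymes GSTP1 at 83.9 ± 5.86 FPKM and NQO1 at 81.7 ± 2.04 FPKM. Alkaline phosphatase, ALPL, a histochemical marker of brain capillaries, had no read, which allows up to 0.0235 FPKM. Gamma-glutamyl transferase GGT1, another such marker, was below detection at 0.43, 0.846, 0.418 and 0.374 FPKM, with library 2 the highest.

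Mesenchymal genes were detected in 37 of 42, 11 of them at 100 FPKM or more, and together they held 1.18 ± 0.0131% of all FPKM, against 0.0852 ± 0.00277% for the 30 endothelial markers. The lists differ in size, and such sums are weighted to the highest genes. Of the mesenchymal list 4 genes, and of the endothelial markers 0, were among the 100 highest of all genes. These shares do not assign the cells to a type. Fibronectin, a matrix glycoprotein (FN1, chr2:215360440-215436172), was at 460.4, 459, 452 and 428 FPKM and rank 30. The intermediate filament gene VIM was at 230.4, 236, 229 and 222 FPKM. Both were lowest in library 4. The calcium-binding S100A6 (422 ± 32.2 FPKM), the collagen VI chain COL6A1 (237 ± 0.937 FPKM), SPARC (139 ± 2.15 FPKM) and both type I collagen chains, COL1A1 (129 ± 8.06 FPKM) and COL1A2 (108 ± 4.99 FPKM), also lay above 100 FPKM. COL1A1 was 5.55 ± 0.361 times the basement membrane chain COL4A1.

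The transcription factors of mesenchymal transition spanned a wide range, with SNAI2 at 11.7 ± 0.61 FPKM, ZEB1 at 10.3 ± 0.448 FPKM, TWIST1 at 8.96 ± 0.795 FPKM, TWIST2 at 71.9 FPKM and SNAI1 at 1.15 FPKM. Of the contractile genes in the list, ACTA2 was low and TAGLN was below 10 FPKM, and some fibroblast genes were low. Levels of TPM1, TPM2, CNN1, CNN2, CALD1 and MYL9, also in the list, are not given here. ACTA2 and TAGLN therefore do not stand for the contractile genes as a group. Smooth muscle actin, ACTA2, was at 1.75 ± 0.391 FPKM and TAGLN at 7.54 ± 0.738 FPKM, whereas COL3A1, FAP, DCN and PDGFRA lay below 1 FPKM and CDH11 was at 0. THY1, a surface glycoprotein of fibroblasts, was at 24.4 ± 1.15 FPKM.

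Markers of other cells that a brain preparation could hold were detected in part. Of 14 pericyte and smooth muscle markers, 5 were detected: NOTCH3 at 24.3 ± 1.27 FPKM, the PDGF receptor PDGFRB at 23.9, 25.5, 22.7 and 23.9 FPKM, SMTN, CSPG4 and LMOD1. The pericyte genes RGS5, ABCC9 and VTN were below detection and KCNJ8 was at 0. Of 12 leukocyte and microglia markers none reached 1 FPKM (highest CSF1R, 0.0911 ± 0.0375 FPKM) and 6 were at 0, with the pan-leukocyte PTPRC at 5 reads. Of 8 astrocyte markers only SOX9, which many mesenchymal cells also express, was detected, at 21.9 ± 0.832 FPKM, and GFAP was at 0.18 ± 0.0603 FPKM. Of 13 neuron and oligodendrocyte markers only MBP was, at 4.63 ± 0.251 FPKM. The epithelial genes CDH1 and EPCAM had no read, although the simple keratins KRT7 (69.98 ± 1.2 FPKM) and KRT18 (49.2 ± 1.32 FPKM) were high, and 6 of 16 epithelial markers were detected in all.

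**Figure D3:**
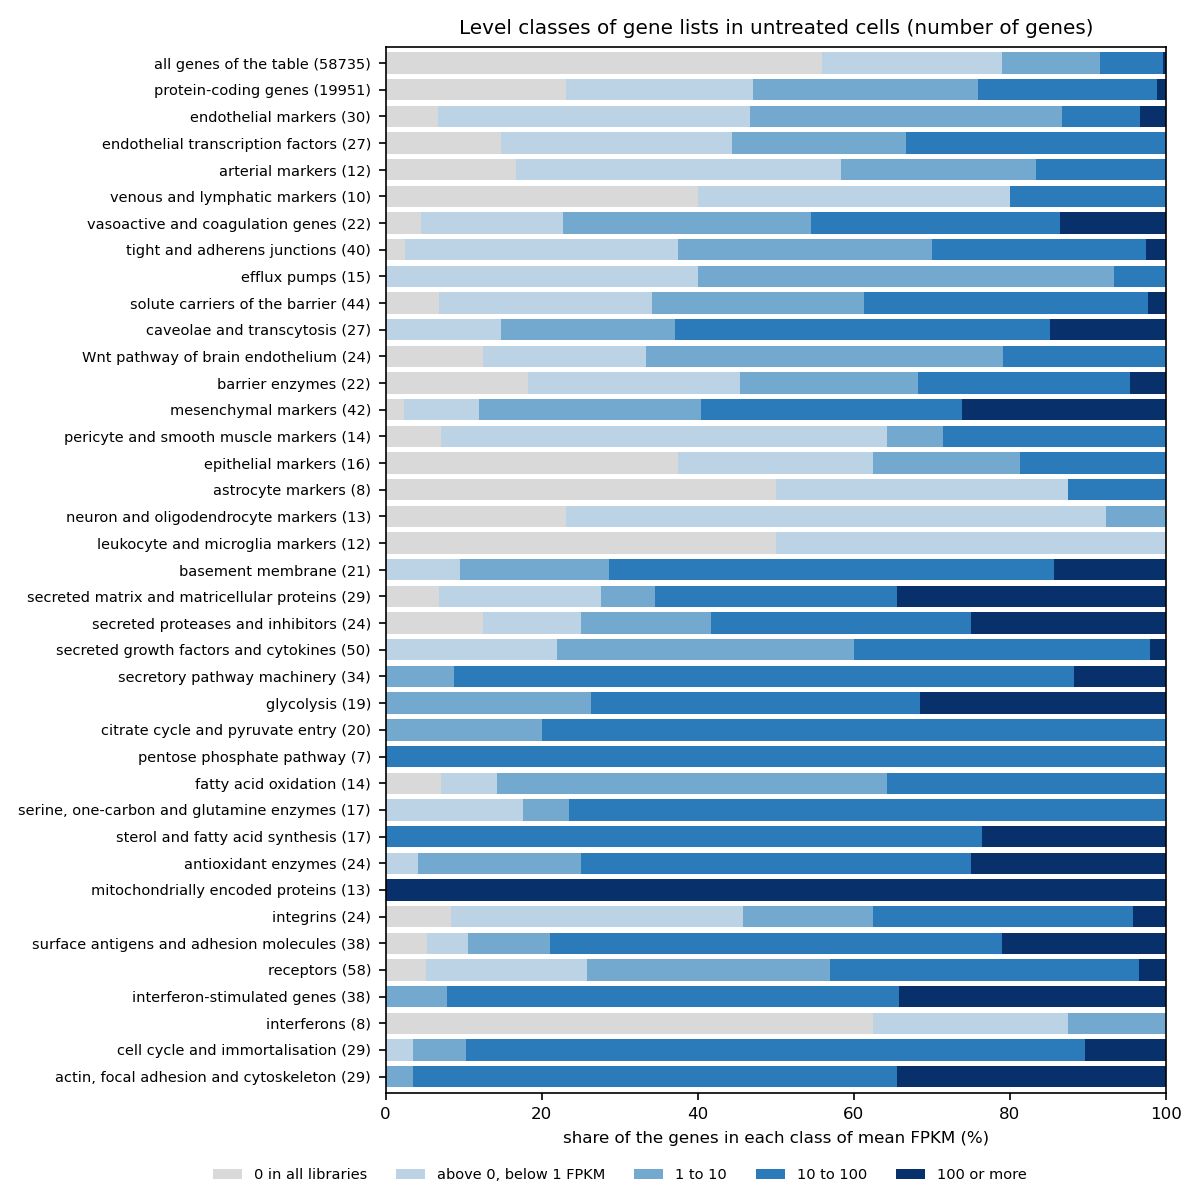
Share of the genes of each list (horizontal axis, percent) in 5 classes of mean FPKM in 4 untreated libraries, with the number of genes in brackets and all genes and protein-coding genes at the top. All genes of the secretory machinery, glycolysis, citrate cycle, pentose phosphate, sterol and fatty acid synthesis and interferon-stimulated lists lie at 1 FPKM or more, and venous, epithelial, astrocyte and leukocyte markers lie mostly below it.

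Secreted products included several of the highest genes. Of 29 secreted matrix and matricellular genes, 21 were detected and 10 reached 100 FPKM. They were led by the galectin LGALS1 at 659.7, 664, 652 and 716 FPKM, highest in library 4, then FN1 and the IGF-binding protein IGFBP4 at 362 ± 16.4 FPKM. IGFBP7, a vessel-associated member of that family, was at 191 ± 4.9 FPKM. IGFBP3 and IGFBP5 lay below 1 FPKM, and the matrix Gla protein MGP and osteopontin SPP1 were at 0.

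Basement membrane genes were detected in 19 of 21. LAMC1 was at 119 ± 2.88 FPKM and LAMB1 at 111 ± 2.01 FPKM, while the collagen IV chain COL4A1 was at 23, 23.5, 23.1 and 23.1 FPKM and COL4A2 at 28.5 FPKM. The endothelial laminin chains LAMA4 and LAMA5 were at 48.8 and 37.3 FPKM, and LAMA2, a chain that astrocytes contribute, was at 0.109 FPKM. Of 24 secreted proteases and inhibitors, 18 were detected, led by the metalloproteinase inhibitor TIMP3 at 311, 331, 294 and 301 FPKM. TIMP2, CTSB and CST3 also exceeded 100 FPKM. The gelatinase MMP2 was at 75.5 FPKM and its relative MMP9 at 0.

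Of 50 growth factors and cytokines, 39 were detected, with a median of 5.12 FPKM. The pattern recognition protein PTX3 was far above the rest at 132, 154, 154 and 152 FPKM, lowest in library 1. TGFB1 was at 58.6 ± 3.84 FPKM, and the lymphangiogenic factor VEGFC, at 41.8 FPKM, was above VEGFB and VEGFA, at 28.8 and 5.25 FPKM. Chemokines for monocytes and neutrophils were detected in unstimulated cells, with CCL2 at 32.9 FPKM, CXCL1 at 22.6 FPKM and CXCL8 at 12.6 FPKM, and IL6 was at 1.68 FPKM. The pericyte-recruiting PDGFB and the vessel-destabilising ANGPT2 were below detection at 0.069 and 0.346 FPKM. All 34 genes of the secretory pathway machinery were detected, with a median of 38.6 FPKM. The chaperones of the endoplasmic reticulum CALR and HSPA5 were at 258 ± 11.9 and 119.8 ± 2.95 FPKM, and the disulfide isomerase P4HB at 109.5 ± 0.512 FPKM.

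Most genes of every metabolic list were detected. All 19 glycolysis genes were detected, led by GAPDH at 465, 468, 458 and 469 FPKM, ENO1 at 291 ± 6.31 FPKM and PKM at 271 ± 6.46 FPKM. The lactate dehydrogenase chain LDHA, at 103 FPKM, was 31.3 ± 2.01 times LDHB, at 3.29 FPKM. The aldolase ALDOA was listed at 3.27 FPKM. For LDHB and ALDOA, 33.4% and 53.5% of exon bases lie in other genes, and the part of that overlap in these low values was not tested. All 20 citrate cycle genes were detected at a median of 22.7 FPKM, and MDH2 was the highest at 40.1 ± 1.23 FPKM. All 7 pentose phosphate genes lay between 10 and 100 FPKM, among them PGD at 59.9 ± 3.39 FPKM and TALDO1 at 48.8 ± 0.781 FPKM.

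Lipid synthesis stood above fatty acid oxidation. All 17 sterol and fatty acid synthesis genes reached 10 FPKM, with a median of 57.8 FPKM, against 12 of 14 oxidation genes detected at a median of 6.77 FPKM. The stearoyl-CoA desaturase SCD was at 437, 445, 418 and 419.5 FPKM and rank 34, the fatty acid synthase FASN at 207 ± 8.08 FPKM and the citrate lyase ACLY at 139 ± 3.38 FPKM. The carnitine transferase CPT1A, which admits fatty acids to mitochondria and is used by endothelium for nucleotide synthesis, was at 6 ± 0.506 FPKM.

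The entry enzyme of serine synthesis was nearly without reads. Of 17 serine, one-carbon and glutamine genes, 14 were detected, with PSAT1 at 61.8 ± 5.14 FPKM and SHMT2 at 41.8 ± 1.62 FPKM, but PHGDH, the first enzyme of the serine pathway (chr1:119648411-119744226), had 2 reads over 4 libraries and 0.0051 ± 0.00589 FPKM. None of its exon bases lie in another gene. Asparagine synthetase, ASNS, was at 0.803 FPKM and shares 44.6% of its exon bases with another gene. Antioxidant genes were detected in 23 of 24, led by FTL, the metallothionein MT2A at 283 ± 13.4 FPKM and the ferritin heavy chain FTH1 at 186, 181, 148 and 206 FPKM. FTH1 had a CV (SD as a percent of the mean) of 13.4%, where the median of genes at 100 FPKM or more was 3.42%, with library 3 the lowest and library 4 the highest, and it shares 62.4% of its exon bases with a gene on the other strand.

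Among the highest surface genes were those of MHC class I and the integrin chain ITGB1. HLA-B was at 461 ± 22.6 FPKM, B2M at 368 ± 18.7 FPKM and HLA-C at 317 ± 10.9 FPKM, although HLA genes are polymorphic and similar to each other, so reads may be split between them. Of 38 surface antigens and adhesion molecules, 34 were detected. The leukocyte ligand ICAM1 was at 18.8, 19.4, 19.4 and 22 FPKM, ICAM2 at 1.49 ± 0.213 FPKM and VCAM1 below detection at 0.672 ± 0.108 FPKM, and the selectin SELE had no read, which allows up to 0.0154 FPKM. Of 24 integrins, 13 were detected (54.2%), close to the 52.9% of all protein-coding genes. The common chain ITGB1 stood at 264, 276, 274 and 271 FPKM, and of its partners the laminin receptor chain ITGA3 was at 80.7 ± 1.37 FPKM and the collagen receptor chain ITGA2 at 45 ± 4.59 FPKM.

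Receptors were detected in 43 of 58, with a median of 6.91 FPKM. The receptor tyrosine kinase AXL was the highest at 109, 106, 106 and 114 FPKM, above ENG in 4 of 4 libraries, and the TGF-beta receptor TGFBR2 was at 96.2 ± 2.77 FPKM. EPHA2 and the thrombin receptor F2R were at 69.7 and 65.5 FPKM. The VEGF co-receptor NRP1 was at 45.2 FPKM, in cells where both KDR and FLT1 were at or near 0. Of the sphingosine phosphate receptors, S1PR1, the main one of endothelium, was at 0.108 FPKM, below S1PR2 and S1PR3 at 3.94 and 2.83 FPKM.

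The cells expressed the genes of proliferation and of the actin cytoskeleton. Of 29 cell cycle and immortalisation genes, 28 were detected, with PCNA at 206 ± 7.13 FPKM, TOP2A at 151 ± 5.82 FPKM and MKI67 at 45.5 ± 2.53 FPKM. The inhibitors CDKN2A and CDKN1A were high at the same time, at 153, 144, 142 and 136 and at 85.8, 86, 86.5 and 89.4 FPKM. TERT was at 7.07 ± 0.53 FPKM, and the introduced hTERT copy and the cell's own gene cannot be told apart in these values. All 29 actin and adhesion genes were detected. TMSB10 was at 1246, 1287, 1189 and 1533 FPKM, highest in library 4, and was 3.02 ± 0.425 times its relative TMSB4X.

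Untreated cells expressed interferon-stimulated genes at high levels without detectable levels of most interferons. These genes are switched on when interferon receptors activate a complex that includes STAT2 and IRF9 and binds a promoter motif called the interferon-stimulated response element. All 38 genes of the list were detected, 35 reached 10 FPKM and 13 reached 100 FPKM, with a median of 55.4 FPKM and 2.05 ± 0.197% of all FPKM. Because the list holds ubiquitously inducible genes that were chosen with these levels known, the count is a description. Of 8 interferon genes, 5 were at 0, IFNB1 had 10 reads and 0.275 ± 0.265 FPKM, and the constitutive epithelial interferon IFNE alone was detected, at 1.75, 1.43, 2.89 and 1.39 FPKM.

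The promoters of 3 interferon-stimulated genes, chosen after their values and their matches were seen, are shown as examples that hold the motif. The 250 bases before the RefSeq start on GRCh38.p14 are given 5′ to 3′ on the gene's strand, with matches to GAAANNGAAA, or TTTCNNTTTC on the other strand, in capitals. Overlapping matches run together as 1 stretch.
ISG15, chr1:1013247-1013496, plus strand: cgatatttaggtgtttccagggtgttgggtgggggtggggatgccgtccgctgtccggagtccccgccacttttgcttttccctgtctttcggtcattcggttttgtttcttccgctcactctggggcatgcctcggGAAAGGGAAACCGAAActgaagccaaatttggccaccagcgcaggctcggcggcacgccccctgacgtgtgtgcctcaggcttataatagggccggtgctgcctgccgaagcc
IFI6, chr1:27672193-27672442, minus strand: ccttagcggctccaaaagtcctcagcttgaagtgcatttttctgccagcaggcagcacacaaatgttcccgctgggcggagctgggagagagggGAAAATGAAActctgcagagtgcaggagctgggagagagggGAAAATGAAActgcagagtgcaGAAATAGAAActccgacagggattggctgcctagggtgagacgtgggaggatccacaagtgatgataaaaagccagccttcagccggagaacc
IFIT3, chr10:89327747-89327996, plus strand: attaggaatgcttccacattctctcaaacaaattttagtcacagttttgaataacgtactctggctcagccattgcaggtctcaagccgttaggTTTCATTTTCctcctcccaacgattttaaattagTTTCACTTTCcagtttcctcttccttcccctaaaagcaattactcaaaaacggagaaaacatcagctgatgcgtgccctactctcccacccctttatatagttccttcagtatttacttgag
The window of ISG15 held 2 overlapping matches, that of IFI6 held 3 and that of IFIT3 held 2. Of 15461 protein-coding genes with such a window, 426 held at least 1 match (2.76%). Promoters were matched for 30 of the 38 genes, under 80%, so the check of the list against all promoters is void. Of the 30, 16 held a match, a count not to be set against the 2.76%. The others held none, among them MX1, STAT2, OAS1 and RSAD2. A match is a run of letters and not evidence of binding. The lack of an exact match in 250 bases before 1 start is not evidence that a gene lacks the element.

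ISG15, a ubiquitin-like modifier, was listed at 642, 681, 835 and 798 FPKM in libraries 1 to 4. Libraries 3 and 4 were above libraries 1 and 2. IFI6, an antiviral protein of mitochondria and endoplasmic reticulum, was at 617, 669.9, 730.4 and 752 FPKM, and the antiviral GTPase MX1 at 115, 124, 159 and 150.2 FPKM. The membrane protein IFITM3 was at 425, 458, 485 and 476 FPKM, and IFIT3 at 168, 179, 221 and 210 FPKM. In each of these 5 genes library 1 was the lowest. The signal transducer STAT2 was at 55.5 FPKM. IRF9 was at 3.03 FPKM, with 48.4% of its exon bases in another gene on the same strand, and the part of that overlap in its level was not tested.

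The interferon-stimulated list varied together between libraries that carry the same label. Its summed level was 4291, 4575, 5312 and 5159 FPKM in libraries 1 to 4. Library 1 was the lowest in 34 of the 38 genes and library 3 the highest in 30, while library 4 was the highest in the other 8. Among all 4956 genes that reached 10 FPKM, library 1 was the lowest in 31.0% and library 3 the highest in 28.9%. The median ratio of library 3 to library 1 was 1.28 over the list and 1.01 over those 4956 genes. By the chi-square test of equal rates, 35 of the 38 varied beyond counting error (Benjamini-Hochberg adjusted over all genes), where 2612 of 13857 genes with at least 40 reads did (18.8%). That share rose with level, to 27% of tested genes at 10 to 100 FPKM and 67.4% at 100 FPKM or more. These 2 classes held 22 and 13 of the list. IFITM2, IRF1 and IRF9 did not pass. Of the interferon genes with reads, IFNB1 was highest in library 1, at 0.666, 0.213, 0.108 and 0.114 FPKM, and IFNE in library 3, both from few reads (10 and 117). The mitochondrial share of gene reads was 3.18%, 3.14%, 3.12% and 3.05% in libraries 1 to 4, and its part in the list's spread was not tested.

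**Figure D4:**
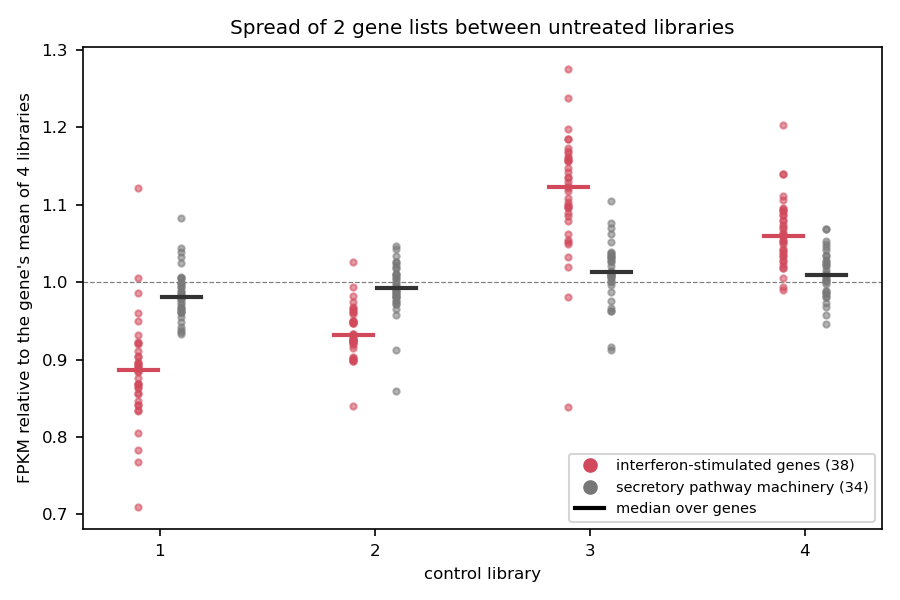
FPKM of each gene divided by its mean of 4 libraries (vertical axis) in each untreated library, for 38 interferon-stimulated genes (red) and 34 genes of the secretory machinery (grey), with bars for the median over genes. The interferon-stimulated genes lie lower in libraries 1 and 2 than in 3 and 4, and the secretory genes stay around 1.

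For most genes the 4 libraries were close. The median coefficient of variation (CV) over the 12325 detected genes was 6.81%, where counting of reads alone would give 5.04%. It was 9.52% for genes of 1 to 10 FPKM, 4.66% for those of 10 to 100 FPKM and 3.42% for those of 100 FPKM or more, where counting would give 7.31%, 3.17% and 1.33%. The count of 2612 genes that varied beyond counting error fell to 1560 without library 1 and to 1680 without library 3, and leaving out a library also lowers the power of the test. For the 6 pairs of libraries, Spearman's rho over detected genes was 0.981 to 0.983, and 192 to 232 genes differed by more than 2-fold. The mean chi-square per gene was 2.54 to 3.41 between pairs, where sampling noise alone gives about 1, so no 2 libraries agreed within sampling noise. This does not show that they came from separate cultures.

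Endothelial genes of low level had a wide relative spread. The median CV was 12.2% for the 16 endothelial markers that were detected, 12 of them at 1 to 10 FPKM, where all genes of 1 to 10 FPKM had 9.52%. Of the 20 endothelial markers with at least 40 reads, detected or not, 4 varied beyond counting error, a share near the 18.8% of all genes tested. The detected genes of the secretory machinery and of caveolae and transcytosis, at higher levels, had median CVs of 3.31% and 3.96%. CDH5 (10.3%), PECAM1 (12.2%) and VWF (13.9%) had wide CVs that did not pass the test of spread beyond counting error. The abundant genes FN1, COL1A1, CAV1 and ENG did vary beyond it, with CVs of 3.35%, 6.27%, 2.98% and 3.84%. So did 174 of the 258 genes at 100 FPKM or more (67.4%), whose median CV was 3.42%. More reads let the test pass smaller differences, so passing does not set these 4 genes apart from others of their level.

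The lowest CVs at 10 FPKM or more, with exons of at least 500 bases, were those of the RNA helicase DHX9 (49.1, 49.2, 49.2 and 49.2 FPKM), the ATP synthase subunit ATP5F1B (199.6 FPKM), BZW1, the kinase CDK2 and the reductase AKR1A1. These CVs were 0.114% to 0.357%, below what counting alone gives on average, so they do not show that these genes are steadier than others. The least steady genes within the same limits were SPCS2P4 (4.48, 21.1, 6.94 and 11.8 FPKM, CV 66.3%), THOC3 (15.6, 9.22, 8.56 and 7.83 FPKM, CV 34.7%), FAM3C2, RPL14P1 and RPL7AP6. SPCS2P4, RPL14P1 and RPL7AP6 are named as pseudogenes, whose reads can be shared with near-identical copies, and their values are uncertain. Whether THOC3 and FAM3C2 share reads with similar copies was not tested.

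**Figure D5:**
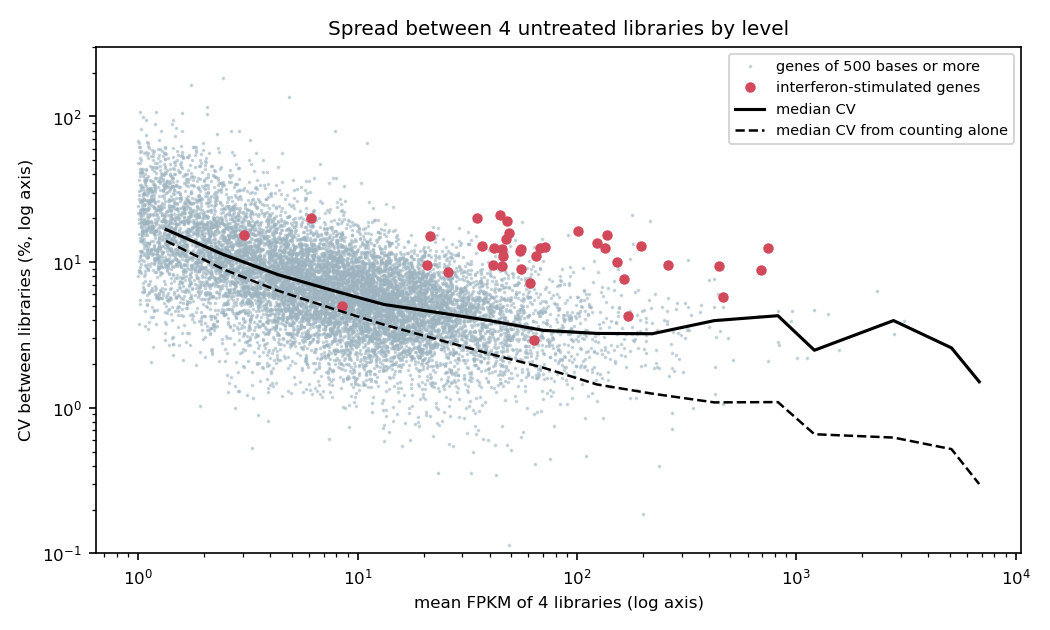
CV between 4 untreated libraries (vertical log axis, percent) against mean FPKM (horizontal log axis), with 1 point per detected gene of 500 bases or more, a solid line for the median CV and a dashed line for the CV that counting alone gives. Most interferon-stimulated genes (red) lie above the solid line, at a median CV of 12.3%.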

How the data were processed

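RNA-seq of 12 libraries was deposited as 1 table of FPKM per gene, of which the 4 control columns were used. Per the submitters' processing notes, the authors used Bowtie 0.12.2 and hg19, whereas the positions and exon lengths of all 58735 genes in the deposited table equal those of GENCODE 29, an annotation of GRCh38. Coordinates are given as in the table, and the build of the alignment was not resolved. Not given in the sources used here are the counting tool, the handling of reads with several matches and the use of strand. Lysis was in RIPA buffer, followed by column purification and a standard Illumina library, per the labels' protocols. FPKM times gene length gave whole reads for 100% of values (tolerance 0.01).

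Means, SDs, ranks and CVs were computed from the FPKM values. Recovered reads entered a chi-square test of equal rates over the 4 libraries (at least 40 reads, Benjamini-Hochberg adjustment, threshold 0.05), tested on simulated data. No test between groups was made. Floors of 3 reads cover counting error only. The gene lists were chosen with earlier results of these data known. Named are the 25 highest genes of at least 500 exon bases, genes marked as defining, the 3 highest of each list and the 5 highest and 5 lowest CVs at 10 FPKM or more. Some genes that these rules name are not reported here. Any other gene was chosen after its values were seen, as were the ratios between genes. In the table, 27 names had become dates and were restored from gene IDs. Alternatives were other thresholds and scalings, shared exons and leaving out each library. Python 3.11.15, numpy 2.4.6, pandas 2.3.3 and scipy 1.17.1 were used.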

Additional observations from a re-analysis of the deposited data

Results flagged for a closer look

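In 17 of the 205 named genes (8.29%), 1 of the 4 libraries stood apart from the other 3: its gap to the nearest library, as a share of the gene's whole range, was above Dixon's critical value for 4 samples. Chance gives about 1 such gene in 20. With 4 libraries, a small absolute difference can give a large share.

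Library 1 stood apart in PTX3 (share 0.91), CLDN1 (0.892) and CD68 (0.938). CLDN1 was listed at 3.2, 4.29, 4.43 and 4.37 FPKM. CD68 lay below detection in all 4 libraries.

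Library 2 stood apart in PECAM1 (0.928), ACLY (0.865), SLC7A1 (0.845), PLAT (0.853) and GGT1 (0.882). GGT1 was at 0.846 FPKM in library 2 and at 0.374 to 0.430 FPKM in the others.

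Library 3 stood apart in ELK3 (0.969), LRP1 (0.868), JAM2 (0.837) and MT-CO3 (0.842). SOX17, SLCO1A2 and SLCO2B1 had a share of 1, because library 3 alone held their few reads (1, 1 and 2). ELK3 was at 37.0 FPKM in library 3 and 37.5 FPKM in the others.

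Library 4 stood apart in CALR (0.958), at 253, 252, 252 and 276 FPKM, and in IGFBP4 (0.882), at 353, 352, 356 and 387 FPKM.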

How the results depend on the processing

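The count of 12325 detected genes became 25861 when any read in any library was enough, 14310 at 0.5 FPKM, 10533 at 2 FPKM, 16876 on the TPM scale and 12305 to 12332 with each library left out in turn. For single genes, 558 recomputed levels and 710 recomputed ranks stayed within the spread between libraries and 192 ranks did not, 73 of them under ranking by reads without length. For levels with a library left out this was fixed in advance, because leaving out a library cannot shift a mean by as much as the SD. No conclusion is drawn from those levels. Members of the lists detected numbered 623, and 622 to 624 with a library left out. Of the 25 highest genes, 14 were shared when genes were ranked by library-scaled reads, not divided by length, and 24 to 25 with a library left out. The 100 highest genes held 26.3% of FPKM but 15.1% of recovered reads, and 26.2% to 26.3% of FPKM with a library left out. The median CV of 6.81% became 27.7% with no filter, 5.17% at 5 FPKM, 4.61% at 10 FPKM and 6.01% from the SD of log2(FPKM + 1), and 6.31% to 6.72% with a library left out. The 2612 genes varying beyond counting error became 1560 to 2055 with a library left out, and 2561 without the interferon-stimulated list, an alternative chosen after seeing the data. TPM rescales each library to a larger fixed sum than its summed FPKM (235570 on average), so 1 TPM is a looser threshold than 1 FPKM. Apart from this and from fewer genes or samples, the cause of these changes was not tested. No paired analysis was possible because no groups were compared. Levels near 1 FPKM, such as VWF and CD34, cross the threshold between libraries, and at this depth 3 reads in 1 kb already equal 0.274 FPKM or more.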

Other observations

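HOX genes, which keep a record of position along the body axis, were mostly below detection. This group was chosen after its values were seen. Of 39 HOX genes, 2 were detected and 17 were at 0 in all 4 libraries, whereas 52.9% of protein-coding genes were detected and 23.2% were at 0. Exon bases shared with other genes were not examined for this group. Both detected genes lie in the HOXD cluster: HOXD10 was listed at 4.5, 4.31, 5.54 and 4.03 FPKM and HOXD8 at 1.74, 1.81, 2.11 and 1.93 FPKM in libraries 1 to 4. None of the 11 HOXA, 10 HOXB or 9 HOXC genes reached 1 FPKM, and HOXA7, at 0.534 ± 0.173 FPKM, came closest among the HOXA genes.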
